A study of Rattus norvegicus with 8 samples.

Results

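The genes Foxo1, Foxo3, Akt1, Akt2, Pik3r1 and Txnip were followed in granulosa cells isolated from rat ovarian follicles. They were taken as all probe sets whose platform annotation named exactly 1 of these 6 genes. That gave 15 probe sets of the 31099 on the array, and the genes were 6 of 14217 with a name. RNA from 8 samples was hybridised to 1 Affymetrix array each. The series' design text describes immature rats that received eCG, a gonadotropin that makes follicles grow. After 24 h they received anti-eCG antibody, which induced follicular atresia, or pre-immune serum. Of the oocytes moved into recipients, 0% of the antibody group and 30 to 50% of the serum group developed to term. The labels of the 8 samples differ only in a number, so all were left without a treatment group, and neither means nor tests between treatments were computed. Strain, age beyond immature and the number of animals behind an array are unknown here. Each array's own value and the spread over arrays are given below, and 8 arrays limit how precisely a spread is known. Arrays are called by their label number, and rows of values run in the order 2074, 2076, 2194, 2195, 2196, 2197, 2198 and 2199.

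FOXO proteins are transcription factors that favour cell-cycle arrest, stress resistance and, in some cells, death. When growth factors such as insulin and IGF1 bind their receptors, PI3K makes a membrane lipid that recruits AKT kinases. AKT then phosphorylates FOXO proteins, which leave the nucleus and lose hold of their target genes. In rodent granulosa cells, follicle-stimulating hormone and IGF1 act through this route, and FOXO1 is known there to restrain proliferation and steroid and sterol synthesis. This regulation acts largely on the proteins, which the arrays did not measure.

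Promoter windows are shown for Foxo1, Akt1 and Akt2, because their brightest probe sets were all highest on the same pair of arrays. They are the 250 bases before the start listed by RefSeq on the GRCr8 assembly, where 4 of the 6 genes had an entry and Foxo3 and Txnip had none. For Akt1 and Akt2 the listed start lay 2521 and 17212 bases inside the gene from its outermost start. Capitals mark GTAAAC, the core of the FOXO recognition element, which was searched on both strands, as GTAAAC and GTTTAC.
Foxo1, chr2:138462724-138462973, plus strand: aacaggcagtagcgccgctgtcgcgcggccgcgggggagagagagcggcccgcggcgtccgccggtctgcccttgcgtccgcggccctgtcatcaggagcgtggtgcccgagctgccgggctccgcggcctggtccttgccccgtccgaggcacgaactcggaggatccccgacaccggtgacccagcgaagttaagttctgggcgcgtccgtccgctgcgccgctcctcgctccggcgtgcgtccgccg
Akt1, chr6:137552611-137552860, minus strand: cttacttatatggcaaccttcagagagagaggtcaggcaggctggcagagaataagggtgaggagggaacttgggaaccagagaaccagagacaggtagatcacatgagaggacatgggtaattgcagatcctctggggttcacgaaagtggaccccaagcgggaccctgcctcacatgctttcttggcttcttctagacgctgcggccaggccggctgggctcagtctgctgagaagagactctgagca
Akt2, chr1:92021667-92021916, plus strand: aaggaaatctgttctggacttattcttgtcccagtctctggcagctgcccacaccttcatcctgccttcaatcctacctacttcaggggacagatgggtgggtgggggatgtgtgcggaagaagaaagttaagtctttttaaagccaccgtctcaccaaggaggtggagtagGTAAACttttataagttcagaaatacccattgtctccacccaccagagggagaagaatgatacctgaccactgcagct
The core occurred in 1 of the 4 members' windows, that of Akt2, where it began 78 bases before the listed start. It was found in 7.003% of 33469 rat promoter windows of this length. The longer form GTAAACA, which contains the core, was in 3.215% of them and in 0 of the 4 members' windows. G and C made up 74.4% of the Foxo1 window, 54.8% of that of Akt1 and 48.4% of that of Akt2. These matches describe letters in these windows and do not show binding.

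Signals are the deposited intensities after scaling the arrays to a common level. A floor was set on each array at its 40th percentile, between 273 and 471, since lower signals are noisy. A probe set counted as measured when it lay above its array's median on at least 2 arrays, which held for 10 of the 15 probe sets and for 5 of the 6 genes. Spread is given as the inner range: after the floor, the second highest array is divided by the second lowest, so that no single array sets it. Arrays 2074 and 2076, called the pair below, have label numbers apart from those of the other 6 and were more like each other than like the rest. Their Spearman correlation across 10513 measured genes was 0.951, and theirs with the other 6 arrays lay between 0.853 and 0.914. Among the other 6 arrays the correlations lay between 0.866 and 0.943, and between 0.913 and 0.943 without array 2195. The value for the pair was thus only slightly above the highest of these. Genes are not independent replicates, so these correlations describe the arrays only. Array 2195 had the highest floor and correlated with the others at 0.853 to 0.889. Below, "with either of the pair left out" means that 1 of them was left out at a time. Where the pair was highest or lowest, the kept array then became the extreme that the inner range ignores. Such an inner range is narrower by construction.

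The regulatory subunit of PI3K, encoded by Pik3r1, could not be followed. Its only probe set, 1370114_a_at, was under the floor on all 8 arrays, at 40.5 to 294, so its order over arrays was not read.

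Akt1 and Akt2 encode kinases that phosphorylate FOXO proteins, and their brightest probe sets ordered the arrays in nearly the same way. Akt1 probe set 1383126_at gave 8802, 8247, 4876, 5733, 5055, 4136, 6303 and 4794. Akt2 probe set 1388765_at gave 3187, 3319, 2073, 2670.5, 1952, 1888, 2487 and 1902. In both, the pair was highest without overlap, arrays 2195 and 2198 followed, and 2197 and 2199 were lowest. The inner ranges were 1.72-fold for Akt1 and 1.68-fold for Akt2, close to the median of 1.71-fold over all measured genes. After each gene's median was subtracted, the root mean square difference between the Akt1 and Akt2 probe sets was 0.12 on the log2 scale. By this measure 2 of the 10513 measured genes were closer to Akt1 than Akt2 was, and 16 were closer to Akt2 than Akt1 was. The log2 inner range of Akt1 was 0.78 with all arrays and 0.39 without array 2074 or without array 2076. For Akt2 it was 0.74 with all arrays and 0.48 without array 2074 or without array 2076.

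The further AKT probe sets did not all follow these. For Akt1, probe set 1368862_at gave 1188 and 1197 on the pair and 1037 on array 2195, but 100.1 to 520.2 on the other 5, of which 4 were at the floor. Its inner range was at least 3.79-fold. Probe set 1375178_at gave 377 to 771 on 7 arrays and 1239 on array 2195, and its inner range was 1.43-fold. For Akt2, probe set 1378425_at gave 624, 1866, 748, 1777, 889, 470.1, 2445 and 611. There arrays 2198, 2076 and 2195 stood above the other 5, array 2074 was among the low ones, and the inner range was 3.05-fold. Probe set 1387353_at was highest on arrays 2195 and 2198, with 3 arrays at the floor and at least 2.27-fold, and 1368832_at was highest on array 2076, with 1.31-fold. From the brightest probe set of the same gene, the others differed by a root mean square of 0.47 and 0.65 in Akt1 and of 0.31 to 0.75 in Akt2 (log2). Over 2664 genes with at least 2 measured probe sets, the brightest 2 differed by a median of 0.58, with quartiles of 0.45 and 0.74.

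**Figure D1:**
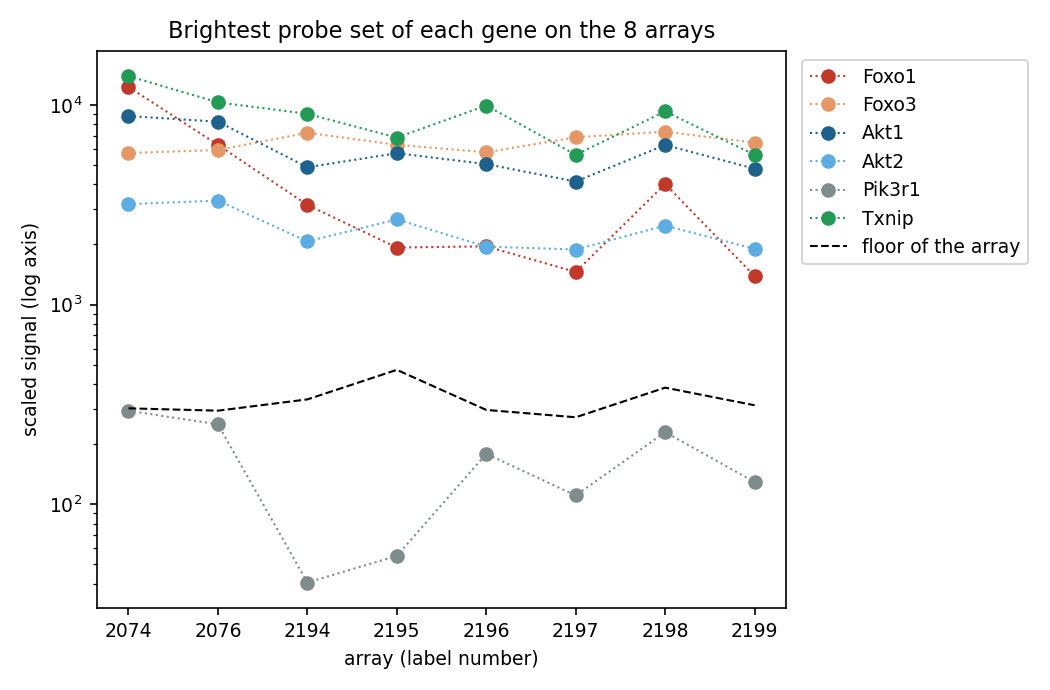
Scaled signal (log axis) of the brightest probe set of each of the 6 genes on the 8 arrays, with the floor of each array as a dashed line; dotted lines only guide the eye, and heights of different genes are not comparable. Foxo1 runs between 1387 and 12314, Foxo3 stays between 5745 and 7351, and Pik3r1 lies under the floor on all 8 arrays.

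The plot of signal by array shows Foxo1 as the steepest of the members. Foxo1 is the FOXO factor best studied in granulosa cells, and its brightest probe set, 1376779_at, gave 12314, 6311, 3157, 1931, 1958, 1457, 4019.9 and 1387. The pair lay above all other arrays, and array 2198 came next. The inner range was 4.33-fold, wider than in 99.1% of measured genes, and the full range was 8.88-fold. It was 2.739-fold without array 2074 and 2.742-fold without array 2076. Among arrays 2194 to 2199 alone, at 1387 to 4019.9, the log2 inner range was 1.12. The other 2 Foxo1 probe sets were not measured, so the Foxo1 values rest on 1 probe set. Probe set 1375688_at was under the floor on all 8 arrays, and 1377502_at on 6, with 427 on array 2196 and 555 on array 2198 above it.

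Foxo3, the FOXO factor best known for keeping primordial follicles of the mouse dormant, hardly varied. Its measured probe set, 1376593_at, gave 5745, 5948, 7255, 6318, 5795, 6885, 7351 and 6471. The lowest values were on arrays 2074 and 2196 and the highest on 2198 and 2194, so the pair was not set apart. The inner range was 1.25-fold, and 5.54% of measured genes were narrower. Probe sets 1376210_at and 1376229_at were under the floor on 7 and 8 arrays. Another FOXO gene, Foxo4, was weak, at 374 to 1479, with its highest signal on array 2195 and an inner range of 1.69-fold.

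Txnip encodes a protein that binds thioredoxin and limits glucose uptake, and its transcription is linked to FOXO factors. Probe set 1371131_a_at gave 13957, 10304, 9029, 6864, 9935, 5628, 9288 and 5626. The pair was highest, though array 2196 was close behind array 2076, and arrays 2197 and 2199 were lowest. The inner range was 1.83-fold and the full range 2.48-fold.

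**Figure D2:**
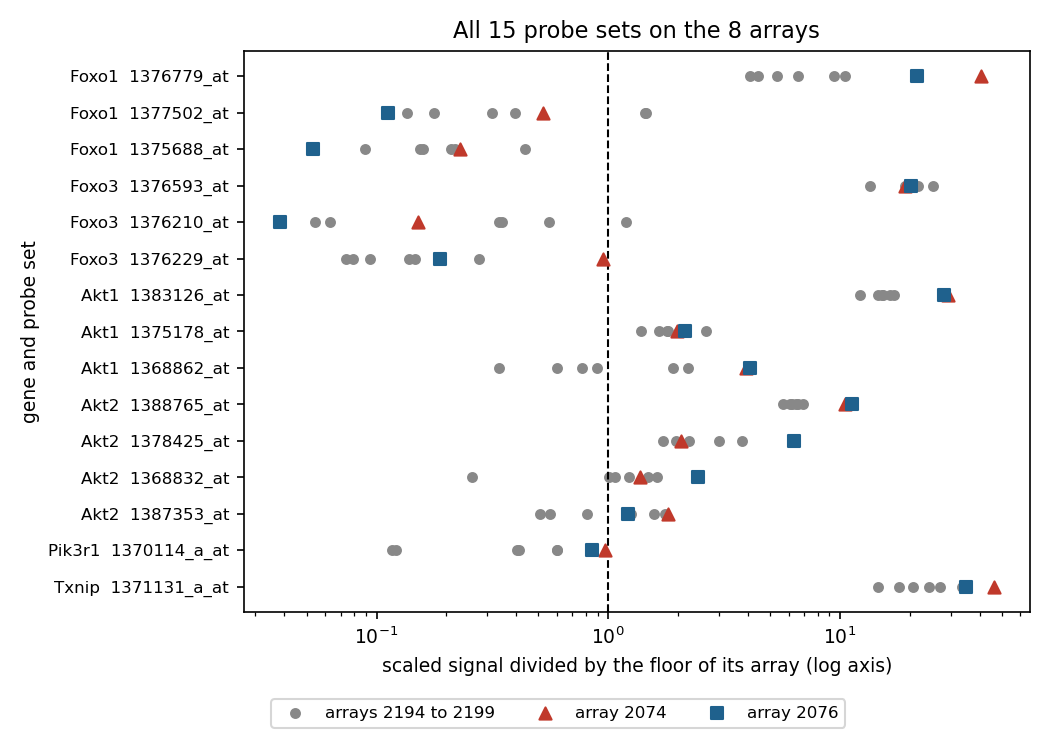
Scaled signal of all 15 probe sets divided by the floor of its array (log axis, dashed line at the floor), with 1 point per array. Array 2074 (triangle) and array 2076 (square) lie to the right of the 6 other arrays (grey) in 5 of the 10 measured probe sets, and 5 probe sets lie under the floor on at least 6 arrays.

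Of the 5 measured members, 4 (Foxo1, Akt1, Akt2 and Txnip) had both arrays of the pair above the other 6 in their brightest probe set, where 13.6% of all measured genes did. Both below held for 0 of the 5 and for 14.5% of all measured genes. These places were the same without scaling, after quantile normalization and without the floor. Over single probe sets the pair lay above the rest in 5 of the 10 measured, as the plot over the floor shows (background 13.1%). An inner range of 2-fold or more was found in 1 of the 5 genes, Foxo1 (background 29.8%), and in 4 of the 10 probe sets (background 31.7%). No test was attached to these counts, since the labels give no groups and the members were chosen with results of these arrays known.

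**Figure D3:**
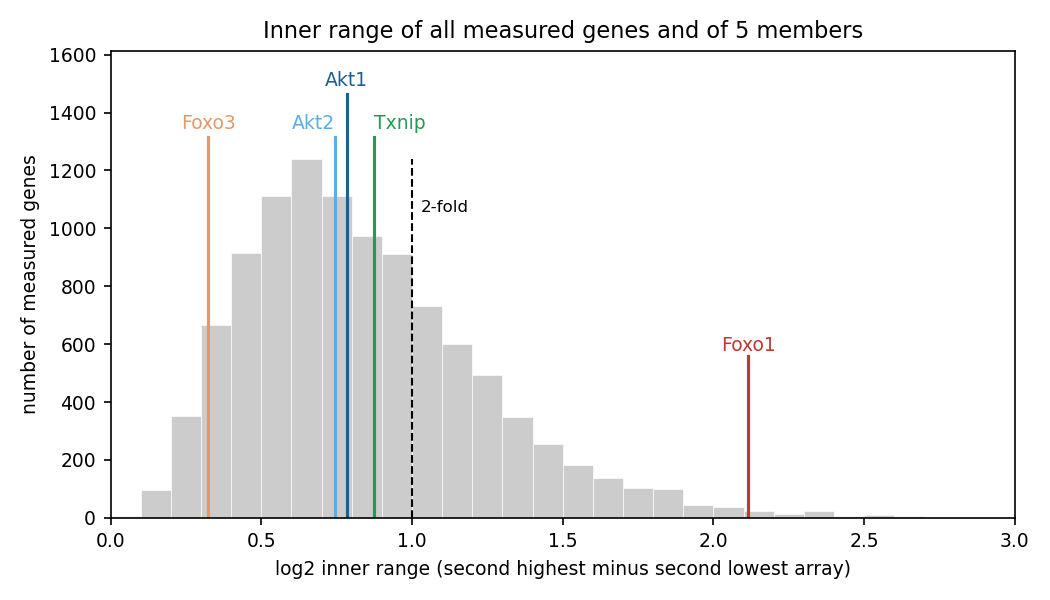
Histogram of the log2 inner range of the 10513 measured genes (bars of width 0.1; genes beyond 3 are not shown), with the brightest probe sets of the 5 measured members as vertical lines whose heights carry no value. Akt1, Akt2 and Txnip lie near the middle at 0.78, 0.74 and 0.87, Foxo3 at 0.32 and Foxo1 at 2.11.

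The histogram places Foxo1 in the far tail and the AKT genes and Txnip in the bulk. Markers of red blood cells were also highest on array 2074, where Foxo1 peaked. Hbb, a haemoglobin chain, gave 45704, 12573, 7651, 6347, 9666, 3709, 8783 and 5817, with the pair above the rest. Alas2, the haem enzyme of red cell precursors, gave 3193.5 on array 2074 and 88.3 to 669.5 on the others, the lowest of them under the floor. These 2 measured markers of the 3 listed summed to 48897 on array 2074, 13218 on 2076 and 3797 to 10335 on the other 6. Their part in the Foxo1 signal was not tested.

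For the other cell types, 0 of 6 summed marker lists put both arrays of the pair above the rest, although 2 were highest on array 2074. The 4 measured of 5 leukocyte markers summed to 7573 and 4814 on the pair, against 4161 to 7111 on the other arrays, and Ptprc, which leukocytes carry, was under the floor on all 8. The 4 stromal markers summed to 3356 and 1854 on the pair, against 1637 to 2449. The 3 theca markers gave 47021 and 73953, against 47472 to 75388, nearly all of it from Star, the cholesterol transporter, which granulosa cells express too. The theca enzyme Cyp17a1 gave 658 and 208 on the pair, against 43.5 to 1159, and the theca hormone Insl3 gave 379.5 and 336, against 42.8 to 1009.9. The 2 measured of 4 endothelial markers summed to 731 and 638, against 273 to 1964. Gdf9, the only measured of 4 oocyte markers, gave 694 and 1166, against 61.7 to 1189. No floor was applied to these marker values and sums. The low ends of Cyp17a1, Insl3 and Gdf9 lay under the floor, where signals are noisy. Over 8 of 9 listed granulosa markers the sums were 358156 and 314415 on the pair, against 266329 to 376495, but the sum follows a few very bright genes. Of the 8 markers 5 reached 2-fold (62.5%, background 29.8%), with a median inner range of 2.38-fold. The pair lay above the rest in 2 of the 8 (25%, background 13.6%). Cyp11a1, the enzyme that starts steroid synthesis, lay between 117741 and 227783. In bulk RNA, fewer cells of a type and less RNA per cell cannot be told apart, and the part of these cell types in the members' values was not tested.

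By least root mean square log2 difference over the 8 arrays, the genes most like Foxo1 were Sdc4 (0.34), Cc2d1b (0.41) and Wdr4 (0.45). Sdc4, a cell-surface proteoglycan, gave 37346 and 31222 on the pair, against 8258 to 16403 elsewhere. With the sign turned, the closest was Atg2b (0.34), which takes part in making autophagosomes and gave 2919 and 4517 on the pair, against 11781 to 25000.3. The inner range of Sdc4 was 3.51-fold, and 1.84-fold with either of the pair left out. That of Atg2b was 4.55-fold, and 1.75-fold with either of the pair left out. By the same measure 391 genes were closer to Foxo1 than Akt1 was (0.74), 630 than Txnip was (0.80) and 783 than Akt2 was (0.83).

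**Figure D4:**
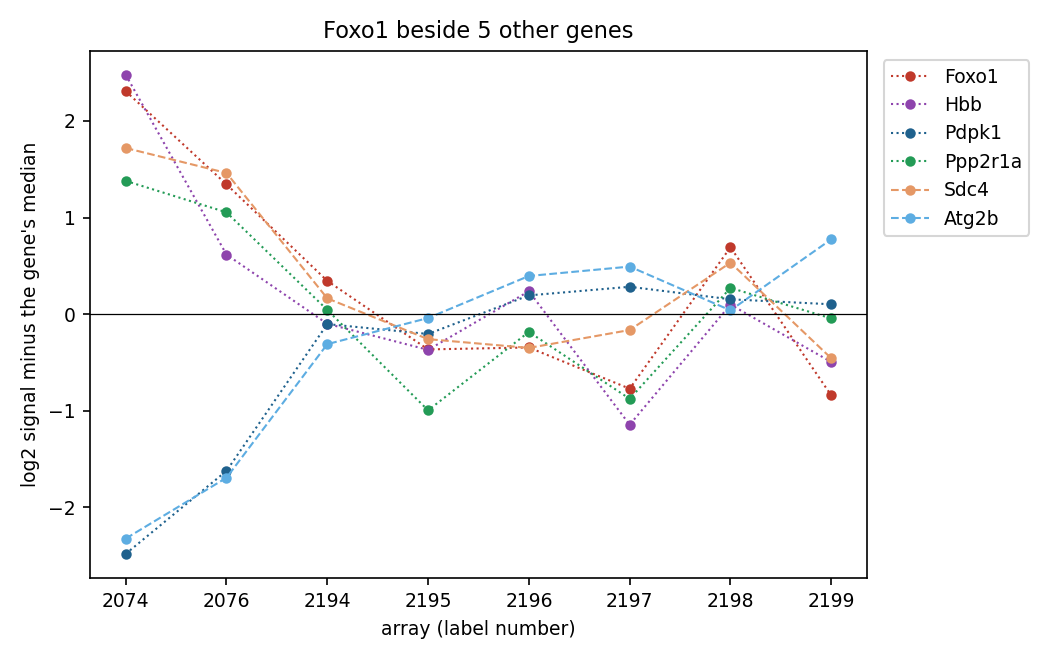
Log2 signal after the floor minus the gene's median over the 8 arrays for Foxo1, Hbb, Pdpk1 and Ppp2r1a (dotted) and for Sdc4 and Atg2b (dashed), brightest probe set each; lines guide the eye only. Foxo1, Hbb, Ppp2r1a and Sdc4 are highest on arrays 2074 and 2076, while Pdpk1 and Atg2b are lowest there.

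The plot of Foxo1 beside other genes also carries Pdpk1 and Ppp2r1a, a pair of AKT regulators from 9 lists of pathway genes. These lists held 125 genes, of which 99 were measured. A 2-fold inner range was reached by 25 of the 99 (25.3%, background 29.8%), and the median was 1.67-fold beside 1.71-fold over all genes. The pair lay above the other 6 arrays in 20 of the 99 (20.2%, background 13.6%) and below in 8 (8.08%, background 14.5%). A next probe set was measured for 15 of these genes, and it kept the pair on the same side in 2 (13.3%), put it on the opposite side in 1 and did not set it apart in 12. Over all measured genes it kept the side in 164 of 911 (18%).

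Among receptors and adaptors upstream of PI3K, 2 of 9 measured genes reached 2-fold (22.2%, background 29.8%), and 1 without array 2076, 2194, 2195 or 2199. Igf1, a growth factor that drives the route in follicles, gave 5473, 2469, 6865, 1796, 3913, 5052, 5166 and 2563, or 2.22-fold. Arrays 2195, 2076 and 2199 were low, so array 2076 did not go with array 2074. Its receptor gene Igf1r was the narrowest of the list, at 19085 to 27066 (1.23-fold), and its next probe set, at 1.37-fold, put the pair above the rest. The adaptor Gab1 had 2.16-fold, and Irs3, an insulin receptor substrate of rodents, at least 1.85-fold with 4 arrays at the floor. Of the other PI3K subunits, 0 of 4 reached 2-fold, with the catalytic subunit genes Pik3cd at 1.98-fold and Pik3ca at 1.23-fold. The regulatory subunit Pik3r2 had 1.84-fold and the PI3K inhibitor Pik3ip1 had 1.48-fold.

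Genes that switch AKT on and off held the widest inner ranges of the 99 after Cyp19a1. Pdpk1 encodes the kinase that phosphorylates AKT at the membrane, and its brightest probe set gave 4785 and 8678 on the pair, against 23179 to 32521. That was 3.52-fold, and 1.32-fold with either of the pair left out. The next Pdpk1 probe set went the other way, with 3165 to 4145 on the pair, against 816 to 2532 (2.13-fold), so no direction can be given for this gene. Ppp2r1a, the scaffold of a phosphatase that acts on AKT and FOXO proteins, gave 7808 and 6230.4 on the pair, against 1505 to 3624 (3.81-fold). It had 2.20-fold with either of the pair left out, 2.35-fold without array 2195 and 2.37-fold without 2197. Its next probe set had 1.52-fold and did not set the pair apart. The catalytic subunit Ppp2ca, at 1.44-fold, was instead lowest on the pair, but its next probe set, at least 2.498-fold, did not set the pair apart.

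Of 9 measured phosphatases and brakes, 5 reached 2-fold (55.6%, background 29.8%). The count was 1 without array 2198, and 2 with the mean of probe sets or with signal above the median on all arrays. Besides Ppp2r1a these were the AKT inhibitor Trib3 at 2.40-fold and the inositol lipid phosphatases Inpp5k at least 2.18-fold, Inpp5d at least 2.15-fold and Inppl1 at 2.03-fold. In the AKT activation list, Pdpk1 was the only 1 of 8 (12.5%). The count was 0 with either of the pair left out or with the mean of probe sets. It was 2 without scaling, after quantile normalization and with a lower floor or none. Mapkap1, a subunit of a kinase complex that also phosphorylates AKT, had 1.84-fold, the chaperone partner Cdc37 had 1.66-fold and Mlst8, another subunit, had 1.27-fold. Both Mapkap1 and Cdc37 were highest on the pair.

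**Figure D5:**
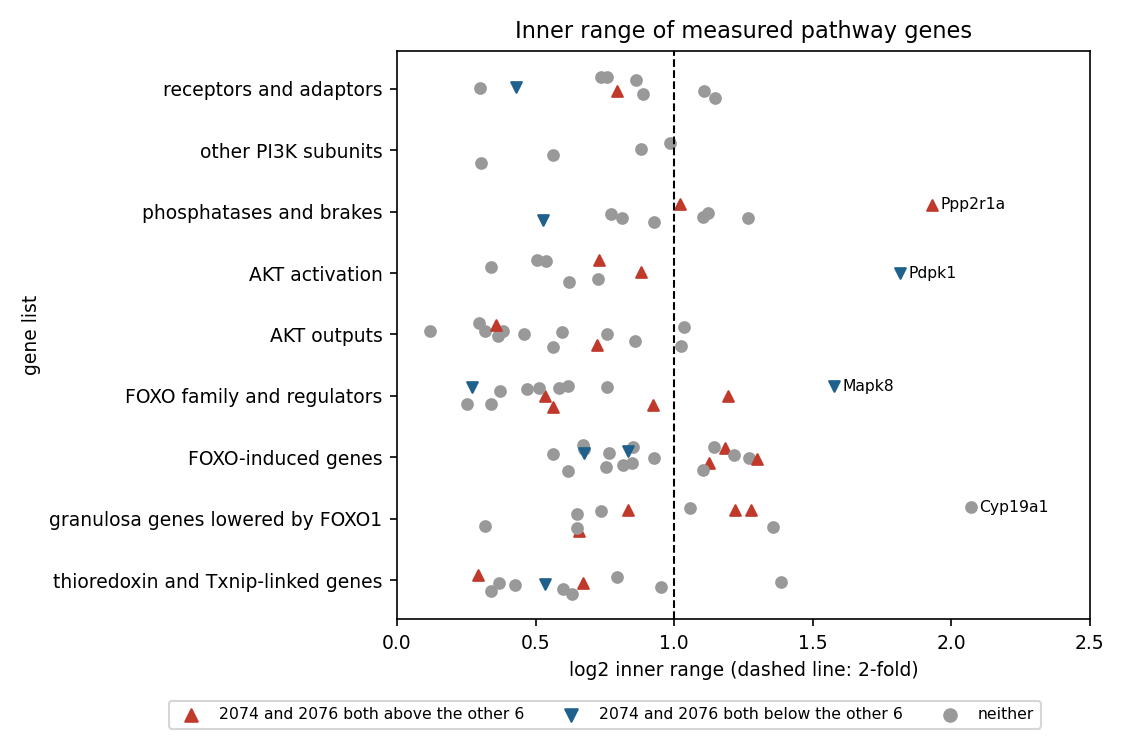
Log2 inner range of each measured gene of the 9 pathway lists, 1 row per list (dashed line at 2-fold), with genes whose arrays 2074 and 2076 both lay above (red) or below (blue) the other 6; vertical scatter within a row carries no value. Ppp2r1a, Pdpk1, Mapk8 and Cyp19a1 lie farthest to the right, and 74 of 99 genes lie under 2-fold.

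The plot by list shows 2 of 14 measured AKT outputs at 2-fold or more (14.3%, background 29.8%), and 1 without array 2194, 2196, 2197 or 2198. These were Tsc2, a brake on mTOR, at 2.05-fold and Eif4ebp1, a translation repressor, at 2.04-fold. Eif4ebp1 had 1.27-fold without array 2196 or 2197. The kinase Sgk3 had 1.82-fold, and Rheb, the activator of mTOR, had 1.09-fold but 1.97-fold in its next probe set. Among FOXO relatives and regulators 2 of 14 reached 2-fold (14.3%). The count was 1 with either of the pair left out or with the mean of probe sets, and 4 after quantile normalization. Mapk8, a stress kinase that acts on FOXO proteins, gave 1382 and 752 on the pair, against 1691 to 5447 (2.99-fold), while its next probe set had 1.72-fold and did not set the pair apart. Ywhae, a 14-3-3 protein of the kind that holds phosphorylated FOXO in the cytoplasm, gave 42153 and 46232 on the pair, against 15071 to 21398. It had 2.29-fold, and 1.15-fold with either of the pair left out. Ywhah had 1.90-fold, and the nuclear exporter Xpo1 had 1.19-fold.

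Of 19 measured genes that FOXO factors are known to induce, 7 reached 2-fold (36.8%, background 29.8%). That count was 2 without array 2074 or 2076 and 4 without array 2199. The pair lay above the rest in 3 (15.8%, background 13.6%) and below in 2 (10.5%, background 14.5%), shares near the background. Cdkn1a, an inhibitor of cell division, gave 31628 and 48733 on the pair, against 8414 to 26131 (2.19-fold, and 1.80-fold with either of the pair left out). Sod2, the mitochondrial superoxide dismutase, gave 8438 and 6573, against 2739 to 3955 (2.27-fold, and 1.36-fold with either of the pair left out). The autophagy gene Gabarapl1 gave 7637 and 8713, against 3046 to 5625 (2.46-fold). It had 1.81-fold with either of the pair left out, and 1.76-fold without array 2194 or 2199. These 3 had the pair above the rest, as Foxo1 had, but Cdkn1a and Gabarapl1 were highest on array 2076 and Foxo1 on 2074. The next probe sets of Cdkn1a and Gabarapl1 did not set the pair apart. Ccng2, a cyclin linked to arrest, was lowest on the pair, at 4649 and 3026, against 5293 to 10052, as was Klf15 at 1910.3 and 1893, against 2168 to 4186. The next probe set of Klf15, at least 2.48-fold, did not set the pair apart either. Bnip3, which targets mitochondria for removal, had 2.32-fold, Pdk4, a brake on pyruvate use, at least 2.41-fold, and Sesn2 1.48-fold. Without array 2076, both Bnip3 and Pdk4 came to 1.68-fold.

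Of 11 measured genes that FOXO1 is known to lower in rodent granulosa cells, 4 (Inha, Mvk, Sqle and Lss) had the pair above the other 6 arrays (36.4%, background 13.6%) and 0 had it below (background 14.5%). The next probe set kept the pair above in Lss and did not set it apart in Mvk. Inha, the inhibin alpha subunit, gave 90530.1 and 69907 on the pair, against 26724 to 54083. Cyp19a1, the aromatase, gave 6422, 987, 11168, 15060.4, 3582, 10318, 20564 and 12760.4, lowest on array 2076, with 2196 next and 2074 after it. Its inner range was 4.20-fold, 2.34-fold without array 2076 or 2196, and 1.91-fold in its next probe set. Altogether 5 of the 11 reached 2-fold (45.5%, background 29.8%), and 3 did without array 2074, 2196, 2197, 2198 or 2199. Besides Cyp19a1 they were the sterol regulator Srebf2 (2.56-fold), the sterol synthesis gene Mvk (2.43-fold), Inha (2.33-fold) and Ccnd2 (2.08-fold), a cyclin of granulosa proliferation. Srebf2 had 1.56-fold without array 2194 and 1.57-fold without 2198.

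Among thioredoxin and Txnip-linked genes, 1 of 11 reached 2-fold (9.09%, background 29.8%), the arrestin-like Arrdc2, at least 2.61-fold with 2 arrays at the floor. The glucose-sensing factor Mlxipl had at least 1.94-fold and Arrdc4 1.73-fold. Txnrd1, which reduces thioredoxin, had 1.22-fold, but at least 2.72-fold in its next probe set.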

How the data were processed

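The deposited values are linear signal intensity on Affymetrix rat arrays. Per the submitters' processing notes the authors used MAS5, version not given in the sources used here. Trimming 2% from each end left array means of 1500.5 to 1500.6, so arrays had been scaled before deposit. Without 57 control probe sets, signals were log2 transformed and arrays aligned on the median of probe sets that exceeded the array median everywhere. Names came from the platform annotation, which can be old: 20826 probe sets had 1 symbol, 436 several, and 20758 matched a GRCr8 gene table by identifier, with 0 symbols changed. A gene was represented by its brightest probe set. MAS5 is noisy at low signal, and no detection calls were used. At most 1 value was equal between any arrays compared as a pair.

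All 8 arrays were left without a group, and no tests were made. The members, lists and rules were chosen with earlier results of these data known. Named are all members, Cyp19a1 and Cyp11a1, in each list the 3 measured genes with the widest and the 1 with the narrowest inner range, and for a member of at least 2-fold the 3 genes most like it and 1 with the sign turned. Foxo4, Inpp5d, Inppl1, Ccnd2, Inha, Sqle, Lss, Cdkn1a, Sod2, Ccng2, Klf15 and Txn1 were named after their values were seen. So were Ywhab, Ywhag, Ywhaq, Ywhaz, Irs2, Insr, Bcl2l11, Sfn, Faslg, Mlxip, Rptor, Bad and the cell type markers. Alternatives were no scaling, quantile normalization, another floor or none, the full range, the mean of probe sets, other filters, leaving out each array, and arrays 2194 to 2199 alone. The steps were tested on simulated data, with Python 3.11.15, numpy 2.4.6 and pandas 2.3.3.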

Additional observations from a re-analysis of the deposited data

Results flagged for a closer look

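Dixon's ratio was taken over the 8 arrays for 133 probe sets, which were the measured ones of the members, of the pathway and marker lists and of the genes most like Foxo1. In 9 of them a single array stood apart from the other 7 at the 95% level. That level stands for about 1 in 20 under the ratio's own assumptions, which were not checked here. No share over all measured probe sets was computed, so the count has no background beside it. The gap to the next array was as small as 1.31-fold, in Rheb and Txnrd1. None of the 9 belonged to a member. Array 2195 was the odd one in 3. Sfn, a 14-3-3 protein, gave 1169 there, against at most 441 elsewhere. Faslg, a death ligand, gave 1237, against at most 545. Mlxip, a glucose-sensing factor, was at the floor there, 471, against at least 1391.

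Array 2194 was the lowest for Rheb, at 38132, against 50122 to 59853, and for the granulosa factor Nr5a2, at 29562, against 39019 to 48582. On array 2199 Rptor, a subunit of the mTOR complex, was highest, at 3719, against at most 1644. Txnrd1 was lowest there, at 5275, against 6905 to 8601. Bad, a death gene that AKT acts on, was lowest on array 2198, at 2175, against 3456 to 4394. Alas2 was highest on array 2074, at 3193, against at most 669.5, and its part in the Foxo1 signal was not tested.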

How the results depend on the processing

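No paired analysis was possible because the labels give no groups. Pik3r1 has no values here, since its probe set was under the floor on all arrays. Of 75 recomputed inner ranges of the other 5 members, 70 moved by less than 1 SD of the same gene over arrays. That SD grows with the gene's own spread, so the rule is loose for a wide gene. Foxo1 counted as unmoved at a log2 inner range of 1.116 over arrays 2194 to 2199, beside 2.115 on all arrays. The mean of all probe sets brought the log2 inner range of Foxo1 to 0.885 and the members at 2-fold or more to 0, with 2 of its 3 probe sets at or under the floor on 6 or more arrays. The full range counts the extreme arrays. It gave 3 of 5 measured members, 8 of their 10 measured probe sets and 7503 of 10513 measured genes at 2-fold or more. Requiring signal above the median on all arrays left 6758 measured genes, of which 1306 reached 2-fold, and 2 member probe sets at 2-fold or more. Over arrays 2194 to 2199 the log2 inner range was 0.24 in Akt1 and 0.38 in Akt2, and 1210 genes reached 2-fold, beside 3130 on all arrays. Leaving out 1 array at a time gave log2 inner ranges of 0.39 to 0.78 in Akt1, lowest without array 2074 or 2076, and 1937 to 2594 genes, fewest without the same arrays. Fewer arrays narrow an inner range by construction. For genes other than the members, left-out values are given mainly where the inner range changed over 1.5 times. Smaller changes also took genes under 2-fold, among them Mvk at 1.65-fold without array 2196 or 2197. Inpp5k came to 1.54-fold without array 2196, and Inha to 1.80-fold with either of the pair left out. Of 153 recomputed counts for the pathway lists, 53 moved by over 1.5 times. Txn1 and Ywhaq lost their place below the other arrays after quantile normalization, and Txn1 also without scaling, where Eif4ebp1 came to lie above; the cause was not tested. Low signal limits Pik3r1 and the weaker AKT and FOXO probe sets.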

Other observations

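The genes for 14-3-3 proteins, which bind FOXO after AKT has acted on it, differed in their brightest probe sets on arrays 2074 and 2076, and for 3 of them a further probe set did not bear this out. Ywhab gave 40683 and 39095 on the pair, against 26513 to 32981, the same side as Ywhae and Ywhah, but its next probe set did not set the pair apart. Ywhaq gave 59539 and 62877 on the pair, against 73359.5 to 80487, except that after quantile normalization the pair no longer lay below all others. Its next probe set, at 2.30-fold, gave 7331 to 8612 on the pair, against 3724 to 8825, and did not set the pair apart. Ywhag, at 12094 to 27862, did not set the pair apart. Neither did the brightest Ywhaz probe set, at 39804 to 77490.3, while its next one gave 20681 to 25614 on the pair, against 9554 to 14985.

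Irs2, an adaptor of the insulin receptor that FOXO1 is known to induce in liver, ran between 846 on array 2198 and 1771 on array 2196. Insr, the insulin receptor, was highest on array 2195 (1092), and its 2 lowest arrays, 2197 and 2194, lay under the floor and have no order. The death gene Bcl2l11, a known FOXO target, was highest on array 2195 (1318) and lowest on array 2197 (382), with 1077 on array 2074 and 764 on array 2076.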
